A study of Mus musculus with 12 samples.

Results

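The genes described here are the transcription factors that give kidney epithelium its identity: Hnf4a, Pax2, Pax8, Sall1, Lhx1, Emx2, Esrrg and Tfcp2l1. A probe set was taken when the array annotation gave it 1 of these 8 symbols, which yielded 7 of the 8 genes, among 18194 genes with a probe set of their own, on 17 of the 45101 probe sets. Pax2 was not analysed here. Hnf4a had 4 probe sets, Esrrg and Tfcp2l1 had 3 each, Lhx1, Sall1 and Pax8 had 2 each, and Emx2 had 1. Of the 17 probe sets, 14 passed a filter on low signal, and each of the 7 genes kept at least 1. The arrays measured total RNA of mouse renal cortex with the Affymetrix Mouse Genome 430 2.0 design. The 4 groups compared, of 3 arrays each, were ICGN mice, labelled as having nephrotic syndrome, at 4 weeks of age; ICR mice, labelled normal, at 4 weeks; ICGN mice at 8 weeks; and ICR mice at 8 weeks. ICGN is a strain derived from the outbred ICR stock that develops heritable glomerular disease, so the disease and any other genetic difference between the strains cannot be told apart in these groups. The labels do not say how many mice stand behind each array, and the p-values below measure the spread between these arrays.

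In the forming kidney, Sall1 and Pax8 act in the progenitors and early epithelium of the nephron, and Lhx1 is needed for the renal vesicle to become a patterned nephron. Emx2 is needed for the ureteric bud to branch and induce nephrons. In the mature kidney, Hnf4a encodes a nuclear receptor that drives proximal tubule genes, Esrrg encodes an orphan nuclear receptor that drives genes of oxidative metabolism and ion transport, mainly in the loop of Henle and distal tubule, and Tfcp2l1 encodes a grainyhead-related factor of the distal tubule and collecting duct. The level of a factor in whole cortex depends on the share of the cells that make it as well as on its level per cell. Fewer cells of a type and less RNA per cell cannot be told apart in such bulk samples.

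The promoter sequences of Hnf4a are shown because it was the factor of the mature proximal tubule whose level differed between the strains, and because its promoter windows were the only ones among these genes to match any motif searched. The HNF1 pattern among these motifs was loosened with the sequences in view. RefSeq (GRCm38.p6) places Hnf4a on the forward strand of chromosome 2 with 2 transcription starts. The 250 bases before each start were searched on both strands for 5 motifs, and the matches are in capitals. Matches to an HNF1 pattern, the letters GTTANT followed directly by NNTTNA, lay 101 to 90 bases before the upstream start and 80 to 69 bases before the downstream one. The downstream window also holds TAATTA, the core of many homeodomain sites, 165 to 160 bases before its start.
Hnf4a, upstream start, chr2:163506607-163506856, forward strand: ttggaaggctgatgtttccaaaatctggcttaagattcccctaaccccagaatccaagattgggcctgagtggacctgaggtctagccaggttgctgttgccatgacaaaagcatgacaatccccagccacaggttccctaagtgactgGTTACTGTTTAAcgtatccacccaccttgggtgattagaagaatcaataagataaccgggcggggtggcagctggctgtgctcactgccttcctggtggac
Hnf4a, downstream start, chr2:163546905-163547154, forward strand: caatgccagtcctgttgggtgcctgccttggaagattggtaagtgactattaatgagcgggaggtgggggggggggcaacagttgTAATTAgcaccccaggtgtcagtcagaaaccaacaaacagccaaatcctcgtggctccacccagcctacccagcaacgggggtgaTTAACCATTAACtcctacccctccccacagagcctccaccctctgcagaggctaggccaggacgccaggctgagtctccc

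Over all 32851 promoter windows of the same length, 0.846% held the HNF1 pattern and 4.84% held TAATTA. The other patterns were an HNF4 site (CAAAGTCCA, in 0.384% of windows), an estrogen-related receptor site (TCAAGGTCA, in 0.387%) and a pair of CCAG boxes 6 bases apart, of the CP2 and grainyhead-related factors (in 2.78%). Of the 13 starts of the 7 genes, 2 held the HNF1 pattern, 1 held TAATTA and 0 held the others. Because the HNF1 pattern was loosened with these sequences in view, its matches here cannot be weighed against its share over all windows. A match is a description of the letters and shows no binding.

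All values below are signals on 1 common scale, on which the arrays have the same median, and each fold change is on a log2(signal + 12.9) scale, which understates the change of dim probe sets. A gene was represented by its brightest probe set and was called changed at an adjusted p of 0.05 or less (limma, Benjamini-Hochberg over 12385 genes). At 4 weeks 1 of the 7 genes was called, Lhx1, which was lower in ICGN, where 3.95% of all genes were called (2.07% higher and 1.88% lower). At 8 weeks 3 of the 7 were called, where 33.8% of all genes were called (11.6% higher and 22.2% lower): Lhx1 and Hnf4a were lower in ICGN and Sall1 was higher. Over all genes the split of 1440 higher and 2751 lower at 8 weeks became 2221 and 1486 under the deposited scaling. Here and below, that name means scaling to the arrays' trimmed means, as the authors did, but with 1 target for both ages. The call share of the 7 genes at 8 weeks, 3 of 7, is near the background share. Of the 3, Lhx1 and Hnf4a kept their call in every alternative processing tried and with any 1 array left out, and Sall1 did not. None of these settings read a dimmer probe set alone, and for both genes some dimmer probe sets did not pass the test, as given below.

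**Figure D1:**
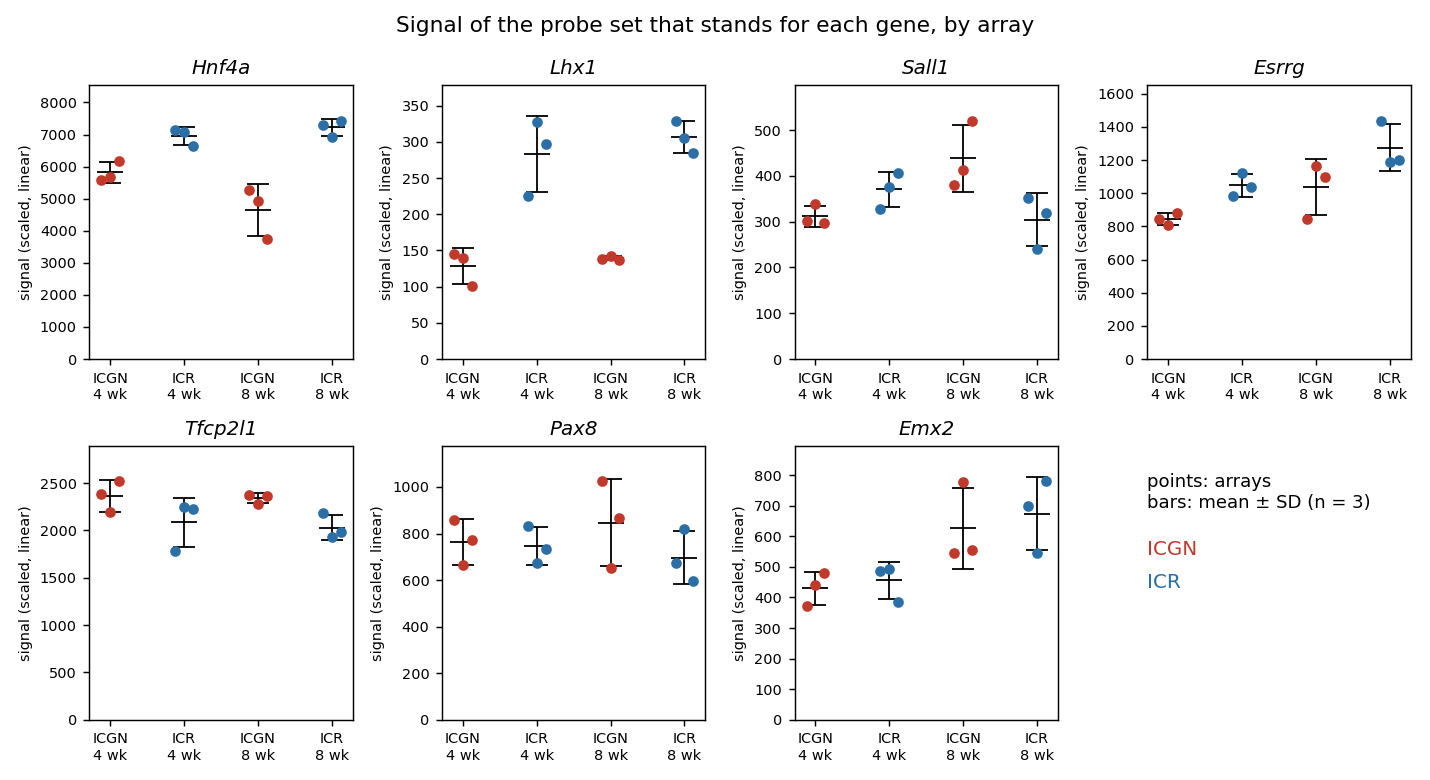
Signal (linear scale, y axis) of the probe set that stands for each gene in every array of the 4 groups (x axis), with the mean and SD of 3 arrays. Lhx1 is below 150 in all 6 ICGN arrays and above 200 in all 6 ICR arrays, and Hnf4a at 8 weeks is at most 5263.1 in ICGN and at least 6932 in ICR.

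Lhx1, the LIM homeodomain factor of nephron patterning, showed the largest strain difference of the 7 genes at either age. At 4 weeks its signal was 145, 140.0 and 100.5 in the ICGN arrays, against 225, 327 and 298 in the ICR arrays. At 8 weeks it was 138, 142 and 137 in the ICGN arrays, against 329, 305 and 285 in the ICR arrays. No ICGN array reached the lowest ICR array at either age. Of all genes, 24.5% showed no overlap of the strains at 4 weeks and 45.9% at 8 weeks. The log2 fold change was -1.07 ± 0.15 (SE; adjusted p = 0.0016, limma) at 4 weeks and -1.07 ± 0.15 (adjusted p = 0.00017, limma) at 8 weeks, a 2.09-fold and a 2.10-fold lower level. The strain difference at 8 weeks minus that at 4 weeks was 0.00 in size to 2 decimals (-0.0039 ± 0.21, 95% interval -0.46 to 0.46). A change with age within that interval, in either direction, is not excluded. The interval does not give the smallest change that would pass the test after adjustment over all genes.

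In order of level, Lhx1 averaged 128 ± 24.4 in ICGN at 4 weeks, 139 ± 2.87 in ICGN at 8 weeks, 283 ± 52.4 in ICR at 4 weeks and 307 ± 22.1 in ICR at 8 weeks (SD, n = 3 each). The neighbours within a strain did not differ beyond their spread (adjusted p = 0.615 in ICGN and 0.564 in ICR, limma). On this probe set, 1450428_at, the step lay between the strains. Whether the strains differ in sequence under the probes was not tested. The 2 probe sets of Lhx1 did not show the same size of difference. The dimmer one, 1421951_at, read 76.2, 90.3 and 87.3 in ICGN and 98.3, 96.3 and 88.5 in ICR at 4 weeks, and 86.7, 136 and 101 in ICGN and 163, 162 and 122 in ICR at 8 weeks. Its groups overlapped at both ages, its log2 fold changes were -0.14 (adjusted p = 0.757, limma over probe sets) and -0.43 (adjusted p = 0.0743), and with the mean of both probe sets the Lhx1 difference came to -0.60 at 4 weeks and -0.75 at 8 weeks.

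Hnf4a, the nuclear receptor of the proximal tubule, was lower in ICGN at 8 weeks. Its brightest probe set, 1427001_s_at, read 5591, 5691 and 6189 in the ICGN arrays at 4 weeks, against 7129.8, 7093 and 6629 in the ICR arrays. At 8 weeks the ICGN arrays read 5263.1, 4938 and 3743, against 7296, 6932 and 7432 in the ICR arrays. The strains did not overlap at either age, a separation that 24.5% of all genes showed at 4 weeks and 45.9% at 8 weeks. The log2 fold change was -0.26 ± 0.11 at 4 weeks, which did not pass the test (adjusted p = 0.235, limma), and -0.65 ± 0.11 at 8 weeks, which did (adjusted p = 0.00064, limma), a 1.57-fold lower level. The difference at 8 weeks minus that at 4 weeks was -0.39 ± 0.16, which did not pass the test (adjusted p = 0.125, limma), so the strain difference is not shown to grow with age.

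In order of level, Hnf4a averaged 4648 ± 801 in ICGN at 8 weeks, 5824 ± 320.0 in ICGN at 4 weeks, 6951 ± 279 in ICR at 4 weeks and 7220.1 ± 259 in ICR at 8 weeks (SD, n = 3 each). The last pair did not differ beyond its spread (adjusted p = 0.736, limma). All 4 Hnf4a probe sets had ICGN below ICR without overlap at 4 weeks, with log2 fold changes between -0.38 and -0.26, and none passed the test over probe sets, where 3.06% were called. The 4 probe sets read 1 gene on the same arrays, and 24.5% of all genes showed no overlap at 4 weeks. At 8 weeks all 4 had a negative log2 fold change, where 27.1% of probe sets were called. 1427001_s_at and 1421983_s_at passed (-0.38 ± 0.09 for the second, adjusted p = 0.0093, limma), and 1450447_at and 1427000_at did not (-0.24 and -0.23, adjusted p = 0.236 and 0.302). For 1450447_at and 1427000_at the strains overlapped at 8 weeks. With the mean of the 4 probe sets the Hnf4a difference at 8 weeks was -0.36 and kept its call (adjusted p = 0.0452), and that at 4 weeks, -0.30, passed the test (adjusted p = 0.0343).

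**Figure D2:**
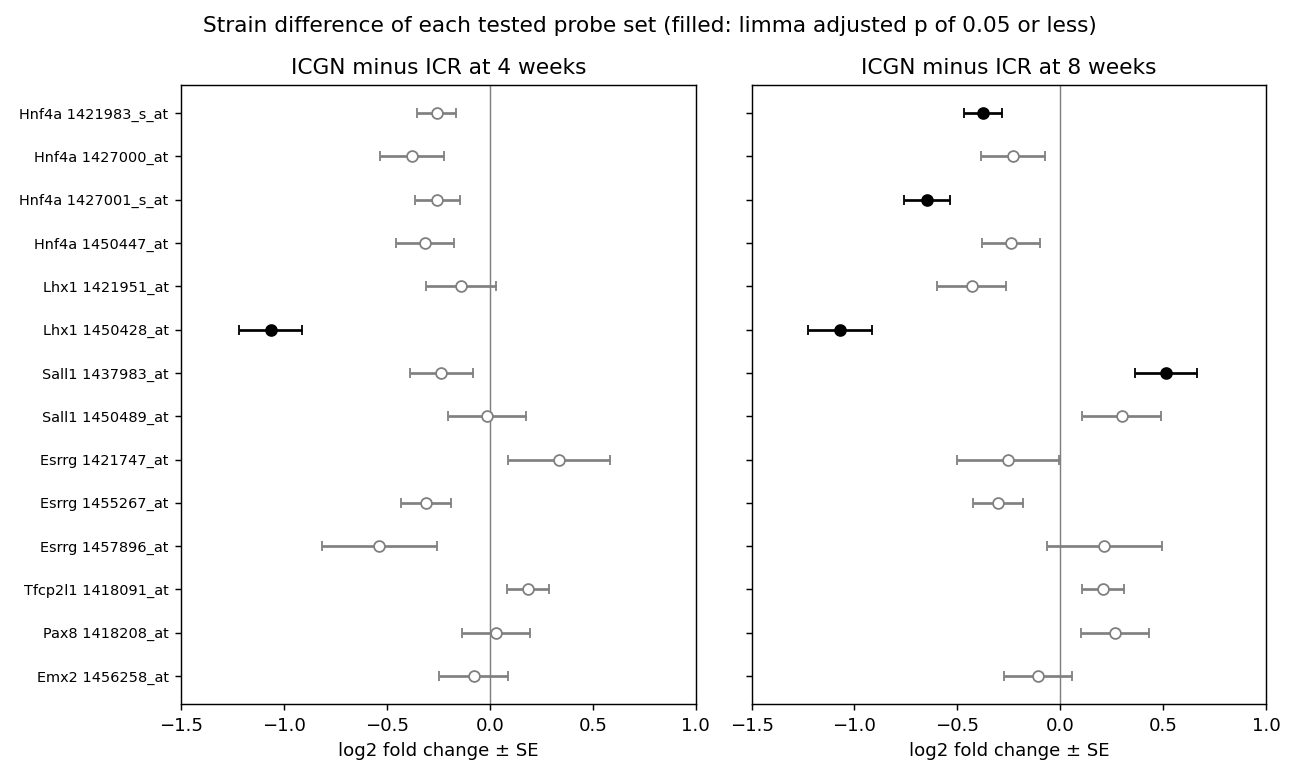
Log2 fold change of ICGN over ICR with its SE (x axis) for the 14 probe sets that passed the filter (y axis), at 4 weeks on the left and 8 weeks on the right; filled points had an adjusted p of 0.05 or less (limma over 24790 probe sets). 1450428_at of Lhx1 is the 1 filled point at 4 weeks, and at 8 weeks 4 are filled: 2 of Hnf4a, 1 of Lhx1 and 1 of Sall1, the last with a positive value.

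Sall1, the zinc finger factor of nephron progenitors, was higher in ICGN at 8 weeks. Its brighter probe set, 1437983_at, read 301, 338 and 296 in the ICGN arrays at 4 weeks, against 329, 377 and 406 in the ICR arrays. At 8 weeks it read 380.2, 413 and 520.4 in the ICGN arrays, against 352, 239.9 and 319.8 in the ICR arrays. The groups overlapped at 4 weeks and did not at 8 weeks, where 45.9% of all genes did not. The log2 fold change was -0.24 ± 0.15 at 4 weeks (adjusted p = 0.449, limma) and 0.51 ± 0.15 at 8 weeks (adjusted p = 0.0165, limma), a 1.43-fold higher level at 8 weeks. The difference between these 2 values, 0.75 ± 0.21, passed the test (adjusted p = 0.0377, limma), where 10.7% of all genes did, and Sall1 was the 1 gene of the 7 to do so. Adjusted over probe sets, where 6.29% passed, it did not (adjusted p = 0.0531, limma).

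Neither Sall1 call was firm. The call at 8 weeks was lost without ICGN replicate 3 at 8 weeks (adjusted p = 0.0807) and without ICR replicate 2 at 8 weeks (adjusted p = 0.0707), and the difference between the ages lost its call with 8 of the 12 arrays left out in turn. In order of level, Sall1 averaged 304 ± 57.9 in ICR at 8 weeks, 312 ± 22.8 in ICGN at 4 weeks, 370.4 ± 39.1 in ICR at 4 weeks and 438 ± 73.3 in ICGN at 8 weeks (SD, n = 3 each). The other probe set, 1450489_at, had the same direction at 8 weeks without passing the test (0.30 ± 0.19, adjusted p = 0.274, limma over probe sets) and showed next to no strain difference at 4 weeks (-0.01 ± 0.19).

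Esrrg, the estrogen-related receptor of the distal nephron, lay lower on its brightest probe set in every ICGN array than in any ICR array at both ages without passing the test. Over all genes, 24.5% showed no overlap of the strains at 4 weeks and 45.9% at 8 weeks, in either direction. 1455267_at read 844, 807 and 878 in ICGN and 983, 1123 and 1037 in ICR at 4 weeks, and 845, 1166 and 1099 in ICGN and 1438, 1187 and 1199 in ICR at 8 weeks. The log2 fold changes were -0.31 ± 0.12 (adjusted p = 0.185, limma) and -0.30 ± 0.12 (adjusted p = 0.0666, limma), and at 8 weeks the difference passed the test without ICGN replicate 2 (-0.39, adjusted p = 0.0372). The 8-week value ranged from -0.39 to -0.16 with 1 array left out (adjusted p up to 0.292, limma). Under the other settings it ranged from -0.39 to -0.11 (adjusted p up to 0.555, limma). The 2 dimmer Esrrg probe sets did not follow 1455267_at: 1457896_at gave -0.54 ± 0.28 at 4 weeks and 0.21 ± 0.28 at 8 weeks, and 1421747_at gave 0.34 ± 0.25 and -0.25 ± 0.25, none of which passed the test. Over the 12 arrays the 3 Esrrg probe sets had Pearson correlations between -0.27 and -0.05 with each other, a description of arrays that share 4 group means.

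Tfcp2l1, the collecting duct factor, was on the other side. 1418091_at read 2388, 2189.8 and 2518 in ICGN and 1785, 2246 and 2226 in ICR at 4 weeks, and 2371, 2281 and 2369 in ICGN and 2180.4, 1928 and 1979 in ICR at 8 weeks. The groups overlapped at 4 weeks and did not at 8 weeks, where 45.9% of all genes did not. The log2 fold changes, 0.19 ± 0.10 (adjusted p = 0.359, limma) and 0.21 ± 0.10 (adjusted p = 0.128, limma), did not pass the test, with a 95% interval of -0.01 to 0.42 at 8 weeks. The 8-week difference passed the test under scaling to the arrays' trimmed means, as the deposited values were (0.37, adjusted p = 0.0141), under quantile normalization (0.46, adjusted p = 0.0056) and with a filter at the 75th percentile (0.33, adjusted p = 0.0186). Over all 13 alternative settings it ranged from 0.12 to 0.46, with adjusted p up to 0.534 (limma). Under the trimmed-mean scaling the median of all genes moved too, from -0.10 to 0.05. The other 2 Tfcp2l1 probe sets did not pass the filter: 1460714_at ranged between 0.102 and 3.60 over the 12 arrays and 1460715_x_at between 1.06 and 10.7, where the median probe set of an array reads 47.2.

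Pax8, the paired box factor of the nephron tubule, and Emx2, the homeodomain factor of the ureteric bud, did not pass the test between strains at either age. Pax8 averaged 764 ± 97.6 in ICGN and 747 ± 80.1 in ICR at 4 weeks, and 847 ± 188 in ICGN and 696 ± 113 in ICR at 8 weeks (SD, n = 3 each), with overlapping groups. Its log2 fold changes were 0.03 ± 0.16 and 0.27 ± 0.16, with 95% intervals of -0.32 to 0.38 at 4 weeks and -0.08 to 0.61 at 8 weeks. Pax8 passed the test at 8 weeks without ICGN replicate 2 (0.44, adjusted p = 0.0435), and its second probe set, 1446561_at, stayed at 25.6 or below in all arrays and did not pass the filter. Emx2 averaged 429.9 ± 54.0 in ICGN and 455 ± 60.9 in ICR at 4 weeks, and 626 ± 131 in ICGN and 674 ± 119 in ICR at 8 weeks (SD, n = 3 each), again with overlap. The Emx2 log2 fold changes were -0.08 (95% interval -0.43 to 0.27) and -0.11 (95% interval -0.46 to 0.24), and the second turned to 0.05 and 0.03 under the 2 other scalings.

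Between 4 and 8 weeks, Emx2 rose in both strains. The deposited 4-week arrays had been scaled to 1 target and the 8-week arrays to another, so the age changes rest on the common scale used here, and the labels do not say whether arrays of both ages were processed together. The age changes in ICGN and in ICR also use the same arrays as the strain comparisons. In ICGN, Emx2 read 372, 439 and 479 at 4 weeks and 546, 777 and 555 at 8 weeks, and in ICR it read 487, 494 and 385 at 4 weeks and 699, 545 and 779 at 8 weeks. Every 8-week array was above every 4-week array of its strain, a separation that 42.3% of all genes showed in ICGN and 44% in ICR, in either direction. The log2 change was 0.52 ± 0.16 in ICGN (adjusted p = 0.0355, limma) and 0.55 ± 0.16 in ICR (adjusted p = 0.0201, limma).

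In ICGN, 3 of the 7 genes changed with age, where 23.1% of all genes did: Emx2 and Sall1 (0.46 ± 0.15, adjusted p = 0.0372, limma) rose, and Hnf4a fell (-0.34 ± 0.11, adjusted p = 0.0406, limma). In ICR, 1 of the 7, Emx2, changed, where 33.3% of all genes did, and Sall1 and Hnf4a came to -0.29 (adjusted p = 0.157) and 0.05 (adjusted p = 0.736). None of these age calls held in all settings. Under the deposited scaling, brought to 1 target for both ages, the 1 gene called in ICR was Sall1. It was lower at 8 weeks (-0.41, adjusted p = 0.0409, limma), while Emx2 did not pass (0.42, adjusted p = 0.0554). Sall1 was also called in ICR with a filter at the 75th percentile (adjusted p = 0.0333) and with the mean of probe sets (0.0218), and Lhx1 with the mean of probe sets (0.35, adjusted p = 0.0432). Esrrg was called with age in ICGN with array weights (0.34, adjusted p = 0.0199) and in both strains without ICGN replicate 1 at 8 weeks (0.42 in ICGN, adjusted p = 0.018, and 0.27 in ICR, adjusted p = 0.047). Each of the 3 calls in ICGN was lost on leaving out 1 of several arrays, among them ICGN replicate 3 at 8 weeks for Hnf4a (adjusted p = 0.173) and Sall1 (0.165) and ICGN replicate 2 at 8 weeks for Emx2 (0.155), and the ICR call was lost without ICR replicate 1 (0.0564) or 3 (0.0907) at 8 weeks and without ICR replicate 3 at 4 weeks (0.0886).

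Probe sets of 1 gene moved in opposite directions with age, a comparison in which 22.4% of all probe sets were called in ICGN and 30.8% in ICR. For Hnf4a in ICGN, 1427000_at rose with age (0.57 ± 0.16, adjusted p = 0.0175, limma over probe sets), while 1450447_at (-0.80 ± 0.14, adjusted p = 0.0015), 1421983_s_at (-0.50 ± 0.09, adjusted p = 0.0020) and 1427001_s_at (-0.34 ± 0.11, adjusted p = 0.0415) fell. In ICR, 1450447_at and 1421983_s_at fell with age (-0.87 and -0.39), 1427001_s_at came to 0.05 and 1427000_at to 0.42 (adjusted p = 0.0544). So the age change of Hnf4a depended on the probe set read, while its strain difference had 1 direction in all 4 at both ages.

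**Figure D3:**
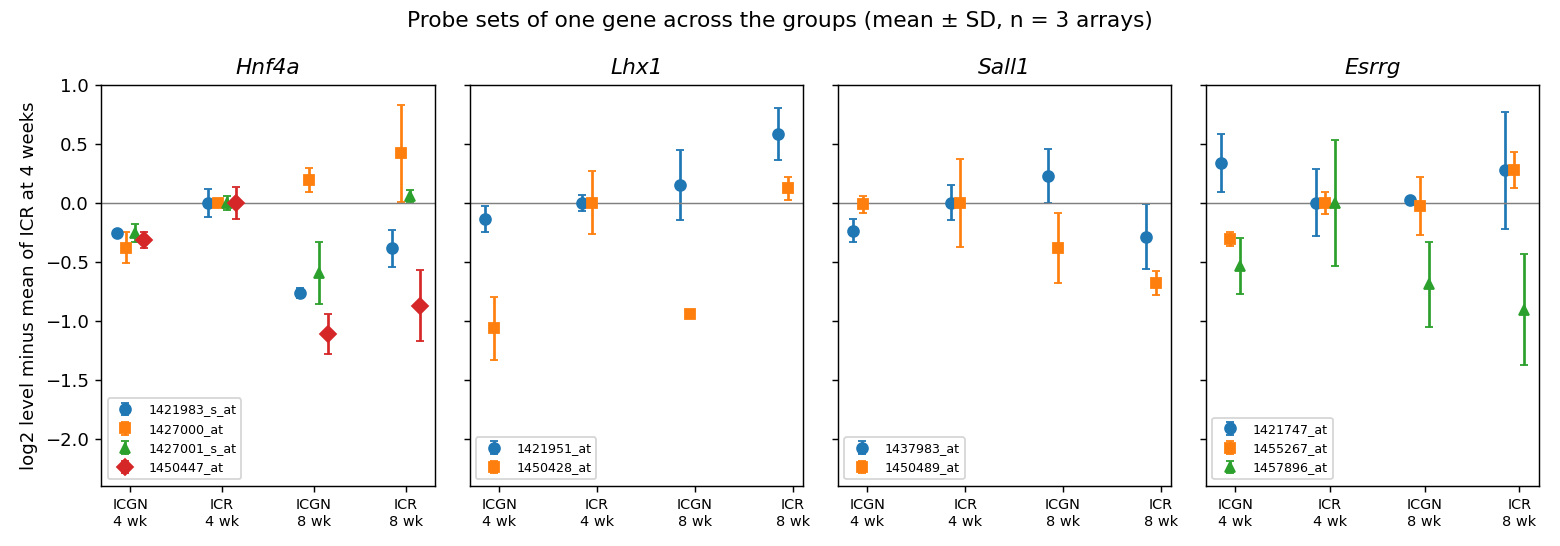
Mean log2 level of each probe set relative to its own mean in ICR at 4 weeks (y axis), with the SD of 3 arrays, in the 4 groups (x axis), for the 4 genes with more than 1 probe set above the filter. In ICGN at 8 weeks, 1427000_at of Hnf4a lies above 0 and its other 3 probe sets lie below 0.

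For Sall1, 1450489_at fell with age in ICR (-0.68 ± 0.19, adjusted p = 0.0152, limma over probe sets) and gave -0.37 ± 0.19 in ICGN, where 1437983_at rose by 0.46. For Lhx1, 1421951_at rose with age in ICR (0.58 ± 0.17, adjusted p = 0.0182), where 1450428_at gave 0.12. For Esrrg, 1457896_at fell with age in ICR (-0.91 ± 0.28, adjusted p = 0.0244), where 1455267_at gave 0.28. In each of these genes the probe set that stands for the gene is the brightest one.

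Across the 12 arrays, Lhx1 and Hnf4a had a Pearson correlation of 0.71 and Hnf4a and Sall1 one of -0.64. These are descriptions over arrays that share 4 groups. The genes whose pattern over the 12 arrays was most like Lhx1 were Carnmt1 (r = 0.97), C1s1 (0.96) and Bik (0.95), and those most like Hnf4a were Chd3 (0.97), Gnpda1 (0.96) and Nup50 (0.95). For Sall1 they were Alyref (0.93), Ltbp3 (0.92) and Zdhhc20 (0.91), and for Emx2 they were Rasgrf2 (0.96), Lgr4 (0.92) and Slc44a1 (0.92). For Esrrg they were Smndc1 (0.93), Ndufaf7 (0.92) and Rffl (0.92), for Pax8 Ppp1r35 (0.92), Slc27a1 (0.84) and Kbtbd13 (0.82), and for Tfcp2l1 Maoa (0.90), Agpat4 (0.89) and Stra6 (0.88). With each group's mean taken away the closest genes were others, such as Ppp1r14a for Lhx1 (0.97) and Snhg17 for Hnf4a (0.93).

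The close relatives of these factors were compared next. The counts of this and the following gene lists stand beside 3.95% of all genes called at 4 weeks and 33.8% at 8 weeks, 11.6% higher and 22.2% lower. Of 8 tested paralogues, 0 were called at 4 weeks (0 at an unadjusted p under 0.05, limma) and 2 were lower in ICGN at 8 weeks, which became 1 under the deposited scaling and 0 under quantile normalization. Esrra, the estrogen-related receptor that drives mitochondrial genes, averaged 862 ± 28.6 in ICGN and 1332 ± 167 in ICR at 8 weeks (SD, n = 3 each), a log2 fold change of -0.61 ± 0.15 (adjusted p = 0.0066, limma). Ubp1, a relative of Tfcp2l1, averaged 1361 ± 64.2 in ICGN and 1625 ± 91.2 in ICR, a log2 fold change of -0.25 ± 0.08 (adjusted p = 0.031, limma). Hnf4g, the paralogue of Hnf4a, was dim at 8 weeks, 45.3 in ICGN and 58.2 in ICR, and did not pass the test (-0.25 ± 0.28, adjusted p = 0.520).

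Of 25 partners and coactivators tested, 1 was lower in ICGN at 4 weeks and 6 at 8 weeks, and 0 were higher at either age. The 6 lower of 25 is near the share over all genes, and the 8-week counts became 1 higher and 2 lower under the deposited scaling and 2 higher and 4 lower under quantile normalization. Ncoa3, a coactivator of nuclear receptors, was lower at both ages, with log2 fold changes of -0.88 ± 0.13 (adjusted p = 0.0023, limma) and -0.69 ± 0.13 (adjusted p = 0.0014, limma). Among other coactivators, Ncoa1 (-0.43), Ppargc1b (-0.49) and Ep300 (-0.35) were lower at 8 weeks. The median of the 25 at 8 weeks was -0.05, above the median of all genes, -0.10, and it turned to 0.10 under the deposited scaling and 0.05 under quantile normalization.

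Other transcription factors of nephron segments were also compared. Of 26 tested, 0 were called at 4 weeks (7 at an unadjusted p under 0.05, limma), and at 8 weeks 2 were higher and 3 lower in ICGN, with a median of 0.01. Cux1, a homeodomain repressor, was lower (1163 ± 46.7 in ICGN and 1893 ± 26.6 in ICR, SD, n = 3 each; -0.70 ± 0.09, adjusted p = 5.79e-05, limma), and so was Irx3 (-0.50), an Iroquois factor of the nephron. Zfhx3 (1.05) and Irx2 (0.57) were higher. The split of 2 higher and 3 lower became 6 and 2 under the deposited scaling and 4 and 1 under quantile normalization.

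Genes of kidney development, a list with no member of the 7 in it, had 0 of 20 called at 4 weeks (1 at an unadjusted p under 0.05, limma) while 10 were called at 8 weeks, 6 of them higher in ICGN and 4 of them lower, with a median of 0.21 against -0.10 over all genes. The split became 6 higher and 1 lower under the deposited scaling and 5 and 2 under quantile normalization. Sox4, a factor of the renal progenitors, averaged 2035 ± 277 in ICGN and 840 ± 155 in ICR at 8 weeks (1.27 ± 0.13, adjusted p = 1.99e-05, limma). Npnt, a matrix ligand by which the ureteric bud signals, was higher (0.53 ± 0.10), as was Cd24a (0.60 ± 0.11), a surface protein of progenitor and injured tubule cells. Fras1, a matrix protein of the ureteric bud, was lower (-0.52 ± 0.12). Sox4 also stands on the tubular injury list, and Npnt on that of principal cells.

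Genes that define the segments where these factors act differed between the strains at 8 weeks. Of 39 proximal tubule genes, where Hnf4a acts, 23 were lower and 1 higher in ICGN at 8 weeks, with a median of -0.48, against 3 lower and 1 higher at 4 weeks. Anpep (-1.27 ± 0.11), a brush border peptidase, Slc22a2 (-1.09 ± 0.10), an organic cation transporter, and Slc13a3 (-0.87 ± 0.10), a dicarboxylate transporter, were lower, and Cdh6 (2.16 ± 0.23), a cadherin of early and injured proximal tubule, was higher (adjusted p between 5e-06 and 4e-05, limma). The 23 lower became 17 under the deposited scaling and 11 under quantile normalization. Over all 12385 genes the number called lower fell as well, from 2751 to 1486 and 1670.

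Of 32 genes known in other tissues as targets of estrogen-related receptors, most of them mitochondrial, 0 were called at 4 weeks (9 at an unadjusted p under 0.05, limma) and 25 were lower and 1 higher at 8 weeks, with a median of -0.38. Esrra also stands on the paralogue list, and Ppargc1a and Ppargc1b on that of partners and coactivators, so these counts are not fully separate results. Acadm, of fatty acid oxidation (-0.63), Uqcrc1, of respiratory complex III (-0.49), Ogdh, of the citric acid cycle (-0.60), and Ndufs1, of complex I (-0.60), were lower. This count depended on the scaling: 15 were lower under the deposited scaling and 6 under quantile normalization, with medians of -0.21 and -0.04. Over all 12385 genes, 1486 and 1670 were lower under these scalings, against 2751, with medians of 0.05 and -0.03.

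**Figure D4:**
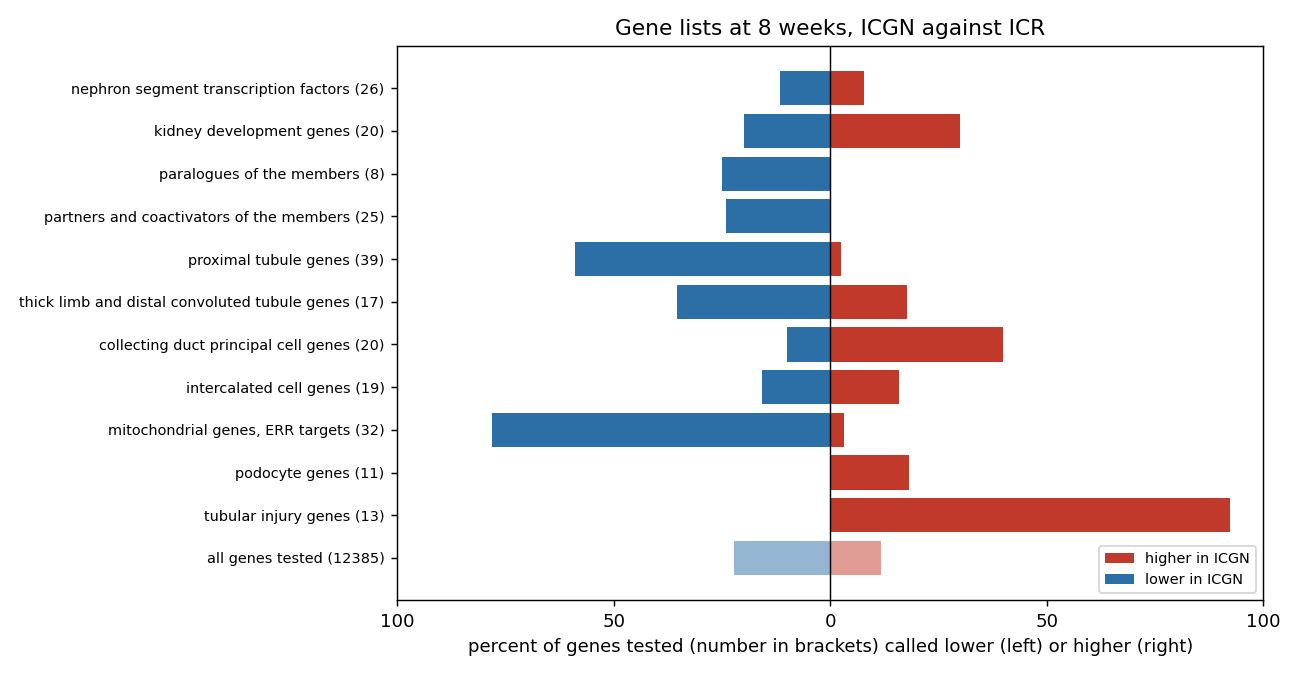
Percent of the tested genes of each list called lower (left, blue) or higher (right, red) in ICGN than in ICR at 8 weeks, with the number tested in brackets and all 12385 genes in the last bar. In the figure's list names, members means the 7 transcription factors. The proximal tubule and estrogen-related receptor target lists lie mostly to the left and the tubular injury list to the right, while the nephron segment factors have 3 of 26 lower and 2 higher.

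Thick limb and distal convoluted tubule genes, the segments of Esrrg, had 6 of 17 lower and 3 higher at 8 weeks, which became 3 of each under the deposited scaling and 4 of each under quantile normalization. The calcium-binding protein Pvalb fell to 176 ± 21.3 in ICGN, against 1335 ± 165 in ICR (SD, n = 3 each; -2.84 ± 0.17, adjusted p = 4.6e-07, limma), and it was already lower at 4 weeks (-1.96). Principal cell genes, of the collecting duct where Tfcp2l1 acts, had 8 of 20 higher and 2 lower at 8 weeks, with a median of 0.32. Krt18 (1.56 ± 0.19), an epithelial keratin, and Mal (0.55 ± 0.10), a membrane traffic protein, were among them. Intercalated cell genes had 6 of 19 higher and 1 lower at 4 weeks and 3 of each at 8 weeks, and the 2 proton pump subunits among the 4-week calls differed in direction: Atp6v0d2 was higher (0.77) and Atp6v0a4 lower (-1.01).

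Other cells and tissue zones differed between the strains beside these results. At 8 weeks 9 of 10 macrophage and dendritic cell markers were higher in ICGN, with a summed signal of 8491 to 10156 in ICGN arrays and 3826 to 4996 in ICR arrays, and 7 of 10 fibroblast and pericyte markers were higher (14580 to 15924 in ICGN and 8873 to 10612 in ICR). Endothelial markers had 5 of 10 lower (3960.1 to 4410.0 in ICGN and 5161 to 5839 in ICR), and 4 of 7 inner medulla markers were higher (6384 to 6541 in ICGN and 3426 to 4344 in ICR). The inner medulla list shares Aqp4, Fxyd4, Krt18, Krt19 and Mal with the principal cell list, so their counts are not separate results. Tubular injury genes had 12 of 13 higher at 8 weeks and 6 of 13 at 4 weeks, where 7 of 10 macrophage markers were also higher. At 4 weeks 0 of 10 endothelial markers were called (0 at an unadjusted p under 0.05, limma), 1 of 10 fibroblast markers was lower and 1 of 7 inner medulla markers was higher. The part of these shifts, and of the intercalated cell shift at 4 weeks, in the Lhx1, Hnf4a and Sall1 differences was not tested.

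Replicate arrays of a group correlated at 0.978 to 0.989, and the 3' to 5' signal ratio of beta-actin averaged 1.61 ± 0.0376 in ICGN and 1.94 ± 0.210 in ICR at 8 weeks (SD, n = 3 each), with p = 0.1 in a two-sided exact permutation test, the lowest value possible for groups of 3. The part of this difference in the 8-week results was not tested. At 4 weeks the beta-actin ratio was 1.40 in ICGN and 1.39 in ICR. It was at most 1.49 in the 4-week arrays and at least 1.57 in the 8-week arrays. The part of this in the age changes was not tested. The Gapdh ratio at 8 weeks averaged 0.794 in ICGN and 0.800 in ICR (p = 0.6, exact permutation test). Markers of the labelled tissue were present: at 8 weeks the phosphate transporter of the proximal tubule, Slc34a1, read 9781 ± 645 in ICGN and 13817 ± 831 in ICR, and the podocyte protein Nphs1 read 151 ± 7.52 in ICGN and 171 ± 23.6 in ICR. Of 11 podocyte genes tested, 2 were higher in ICGN and 0 lower at 8 weeks, with a median of 0.17. Over all genes, 11.6% were higher and 22.2% lower.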

How the data were processed

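Total RNA of renal cortex from ICGN and ICR mice was measured on 12 Affymetrix arrays, 3 in each of 4 groups. The deposited table holds 1 linear signal intensity per probe set, made by the authors with MAS5, per the submitters' processing notes; no version is stated there. The deposited intensities have a trimmed mean of 100.001 on every 4-week array and 500.003 on every 8-week array. Each array was rescaled to the common median of 47.2, 12.9 (the 25th percentile) was added, log2 was taken, and each array was centred on the median of its tested probe sets. Probe sets above their array's median on at least 3 of 12 arrays were kept (24790). Annotation gave 34958 probe sets 1 symbol, 932 several and 9211 none. The brightest probe set stood for a gene. limma 3.58.1 in R 4.3.3 fitted 4 group means (eBayes with trend); fold changes are ICGN over ICR or 8 over 4 weeks. The script was tested on simulated data. The genes and lists were chosen with earlier results of these data known. Every probe set of the 7 factors is reported; from other lists, at most the 4 called genes with the smallest adjusted p per strain comparison and the difference between ages are named, besides marker genes and Hnf4g, which was named after its values were seen. The 3 genes most like each factor by Pearson r are named. The number of arrays limits the precision. Alternatives in scaling, offset, filter, choice of probe set, samples in the fit, test, weights and replicate number, and each array left out, were run. List entries with a symbol numbered 300 of 330; the others are not analysed here.

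Replicate numbers were checked for pairing: of 18 same-number pairs of arrays, 1 had deviations from the group means that correlated above 0.1 (range -0.10 to 0.12), so the numbers were taken as names only.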

Additional observations from a re-analysis of the deposited data

Results flagged for a closer look

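For 17 of the named genes, the strain difference at 8 weeks differed from that at 4 weeks by a test of the difference itself (limma, adjusted over 12385 genes). Over all genes, 10.7% passed this test. Genes of the lists were named partly because they passed it, so the count of 17 follows from the naming and is not a result. The differences of the log2 fold changes, 8 weeks minus 4 weeks, were 0.75 ± 0.21 for Sall1 (SE; adjusted p = 0.0377, limma), 1.02 for Sox4 (adjusted p = 0.0066), 0.74 for Cd24a (0.0113) and 0.65 for Npnt (0.0119). They were -0.82 for Bmp7, a growth factor that keeps nephron progenitors alive (0.0315), -0.68 for Ppara, the nuclear receptor of fatty acid oxidation (0.0483), -0.55 for Cux1 (0.0133) and -0.49 for Ncoa1 (0.0393). Among genes of the nephron segments they were 1.95 for Cdh6 (0.0034), 0.75 for Mal (0.0058), -1.05 for Slc13a3 (0.0014), -0.67 for Slc22a2 (0.0103), -0.64 for Anpep (0.0225) and -0.87 for Pvalb (0.0315). Among estrogen-related receptor targets they were -0.54 for Uqcrc1 (0.0142), -0.56 for Ndufs1 (0.034) and -0.53 for Ogdh (0.0389). Of these, Sall1 is the 1 gene among the 7 transcription factors. Its value is on 1437983_at alone: adjusted over probe sets it had an adjusted p of 0.0531 (limma), and 1450489_at gave 0.31 (adjusted p = 0.521).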

How the results depend on the processing

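Results were recomputed under 13 other settings and with each of 12 arrays left out. Of 868 values of the 7 factors, 749 kept direction and side of the threshold, 47 lost the call, 13 gained it and 59 changed sign; 0 of the 59 were called in either setting. Lhx1 at both ages and Hnf4a at 8 weeks kept their calls throughout: the Hnf4a value ranged over -0.74 to -0.36, and that of Lhx1 over -1.22 to -0.60 at 4 weeks and -1.16 to -0.75 at 8. These settings read the brightest probe set or the mean of a gene's probe sets, and none read a dimmer one alone. Read alone, 1421951_at of Lhx1 was called at neither age, and 1450447_at and 1427000_at of Hnf4a were not called at 8 weeks. Causes of the changes below were not tested.

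The direction of the calls at 8 weeks depended on scaling. They numbered 1440 higher and 2751 lower here, 1052 and 3225 without centring, 2221 and 1486 under the deposited scaling and 1693 and 1670 under quantile normalization, as the median gene moved to -0.18, 0.05 and -0.03, against -0.10 here. For age in ICR, 2413 higher and 1715 lower became 1543 and 2537 under the deposited scaling and 1719 and 2091 under quantile normalization; for the difference between ages, 479 and 846 became 646 and 461, and 484 and 412. At 4 weeks, 256 and 233 became 341 and 205 under the deposited scaling.

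Genes called at 4 weeks numbered 273 with no filter and 1072 with array weights, against 489; at 8 weeks 2792 with a 75th percentile filter, against 4191; for the difference between ages 677 with no filter, against 1325. Among the 7 factors, 2 were called at 4 weeks with the mean of a gene's probe sets, against 1. Sall1's difference between ages lost its call, leaving 0 factors, without centring, with no filter, with the mean of probe sets and with no trend. For age in ICGN, 1 factor was called without centring and 0 with no filter and with no trend, against 3; for age in ICR, 0 under quantile normalization and 3 with the mean of probe sets, against 1. Sall1 at 8 weeks lost its call without centring (adjusted p = 0.0722) and with no filter (0.108).

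The replicate number as a block gave 471 genes at 4 weeks, 4138 at 8 weeks, 1246 for the difference between ages, 2780 for age in ICGN and 4033 for age in ICR; among the 7 factors the block ended 1 call, that of Emx2 with age in ICGN (adjusted p = 0.0533).

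With arrays left out, genes called ranged over 216 to 575 at 4 weeks, 3235 to 4264 at 8 weeks, 748 to 1469 for the difference between ages, 1953 to 3053 for age in ICGN and 3216 to 4181 for age in ICR. Factors called numbered 1 at 4 weeks, 2 to 5 at 8 weeks (5 without ICGN replicate 2), 0 to 1 for the difference between ages, 0 to 4 for age in ICGN and 0 to 2 for age in ICR.

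Sign changes of uncalled values under other settings were these. Under the deposited scaling, quantile normalization and the 75th percentile filter, Emx2 at 8 weeks gave 0.050, 0.026 and 0.019, and the difference between ages gave 0.090, 0.084 and 0.076 for Emx2 and 0.11, 0.039 and 0.10 for Lhx1, which also gave 0.00088 with 0.25 times the offset. That difference for Esrrg was -0.072 without centring and with no filter and -0.0049 with 4 times the offset, and for Tfcp2l1 it was -0.058 in the first pair of settings. Age in ICR gave -0.077, -0.013, -0.073 and, with the mean of probe sets, -0.20 for Hnf4a. It gave -0.0019 (deposited scaling) and -0.0045 (75th percentile filter) for Lhx1, -0.12 for Esrrg (mean), and 0.0019 (no centring) and 0.0022 (no filter) for Tfcp2l1. Age in ICGN gave -0.062 for Esrrg (mean) and 0.022 for Tfcp2l1 (array weights). With arrays left out, sign changes gave these ranges: Pax8 -0.055 to 0.12 and Emx2 -0.19 to 0.020 at 4 weeks; Emx2 -0.27 to 0.0024 at 8 weeks; for the difference between ages, Lhx1 -0.16 to 0.15, Emx2 -0.19 to 0.084, Esrrg -0.081 to 0.15 and Tfcp2l1 -0.036 to 0.13. For age in ICGN they were Pax8 -0.019 to 0.30, Lhx1 -0.035 to 0.20 and Tfcp2l1 -0.069 to 0.029, and for age in ICR Lhx1 -0.034 to 0.23 and Tfcp2l1 -0.15 to 0.020.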
